A study of Mus musculus with 32 samples.

Results

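The conjugation enzymes of phase II metabolism in mouse liver were described across a cross of genotype, thyroid hormone and toxic injury. The members were the protein-coding genes whose symbols begin with Ugt (families 1 to 8), with Gst and a class letter (a, i, k, m, o, p, t or z), or with Sult in the GRCm38 annotation. This rule gave 65 of the 52636 genes in the count table, of which 22 were Ugt, 22 Gst and 21 Sult genes. Polyadenylated RNA was sequenced in bulk from 32 livers, in 8 groups of 4 mice. The labels name mice without thyroid hormone receptor beta (Thrb, TRB KO) and wild-type (WT) mice, each given T3 or phosphate-buffered saline (PBS), and each injected with carbon tetrachloride (CCl4) or oil. The groups were therefore knockout T3 CCl4, wild-type T3 CCl4, knockout PBS CCl4, wild-type PBS CCl4, knockout T3 oil, wild-type T3 oil, knockout PBS oil and wild-type PBS oil. Per the labels' protocols, which give 1 description for the whole series, the diet was PTU/LID (propylthiouracil with low iodine). The PBS groups, with oil or CCl4, are therefore hypothyroid animals, and the PBS oil groups are not untreated ones. CCl4 was dosed at 0.4 µl/g, 2 times a week over 4 weeks, for 9 injections. T3, the active thyroid hormone, was dissolved in the drinking water at 1 µg/ml during the final 1 week, and livers were taken 24 hours after the last injection. The labels give no sex, strain or age and do not say how the knockout was made, and the Y-linked genes Ddx3y, Eif2s3y, Kdm5d and Uty together held 3 counts over all libraries.

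UDP-glucuronosyltransferases (UGTs) sit in the endoplasmic reticulum and attach glucuronic acid from UDP-glucuronate to bilirubin, steroids, drugs and thyroid hormones. Glutathione S-transferases (GSTs) attach glutathione to electrophiles, and sulfotransferases (SULTs) attach sulfate from the donor PAPS to steroids, bile acids, phenols and thyroid hormones. Thyroid hormone receptor beta is the main T3 receptor of hepatocytes and works as a ligand-dependent transcription factor, mostly as a heterodimer with the retinoid X receptor. CCl4 is turned into a toxic radical by cytochrome P450 enzymes, above all CYP2E1, and injures the hepatocytes around the central vein.

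Library totals ran between 16985162 and 26118055 counts. Thrb itself averaged 20.1 ± 3.46 CPM (counts relative to the TMM-scaled library size; here and below mean ± SD, n = 4) in knockout T3 CCl4 livers, against 40.5 ± 5.35 in wild-type T3 CCl4 livers. It averaged 35.9 ± 4.94 CPM in knockout PBS oil livers, against 59 ± 7.09 in wild-type PBS oil livers, so the gene was still counted in the knockout. A count over the whole gene does not show which exons are missing. Of 5 T3 target genes (Dio1, Thrsp, Me1, Hr and Gpd2), 5 rose with T3 in wild-type livers on oil and 5 on CCl4, and the response of 5 was smaller in knockout livers on either injection. A pair of libraries lay farthest from their groups over all genes, replicate 2 of wild-type PBS CCl4 and replicate 3 of knockout PBS CCl4, and some results are given without them too. Their distances from the group mean over tested genes (log2 CPM) were 72.1 and 65.9. Replicate 4 of wild-type PBS CCl4 came next at 57.5, ahead of 43.3 for knockout T3 oil replicate 2. The fit without the 2 far libraries keeps that wild-type replicate. The summed level of 5 hepatocyte markers was 56198 CPM in wild-type PBS CCl4 livers (47591 to 64793), against 134942 CPM in wild-type PBS oil livers (111467 to 162267). On PBS, knockout livers had 86634 CPM with CCl4 and 133829.8 CPM with oil. In bulk RNA, fewer hepatocytes and less RNA per hepatocyte cannot be told apart, and this holds for every CCl4 comparison below.

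Of the 65 genes, 54 had enough counts to be tested: 18 Ugt, 20 Gst and 16 Sult genes. The 11 others were Sult1c1, Ugt2a1 and Ugt2a2, with no count in any library, and Gsto2, Gstt4, Sult2a6, Sult2b1, Sult6b1, Sult6b2, Ugt1a8 and Ugt2b38, each with between 2 and 120 counts over all 32 libraries. On the scale of CPM per kilobase of exon (RPKM), Gstm1, a mu-class transferase, led in wild-type PBS oil livers with 5864 ± 1265 RPKM. Gstm3 followed at 728 ± 312, Gsta3, the alpha-class enzyme that detoxifies aflatoxin epoxide in mice, at 573 ± 140.5, and the pi-class Gstp1 at 356 ± 55.9 RPKM. The highest Ugt genes were Ugt2b36 at 356 ± 60.0 and Ugt2b5 at 336 ± 66.5 RPKM. Ugt1a1 was at 157 ± 28.3 RPKM, but 58.9% of its exon bases also lie in other genes, so its rank on this scale is uncertain. The highest Sult gene was Sult1a1, a phenol sulfotransferase, at 303 ± 64.2 RPKM. Gst genes thus carried most of the conjugation transcripts, with a summed level of 15730.2 ± 3154 CPM in that group beside 4131 ± 574 for Ugt and 698 ± 155 for Sult genes. Summed Sult levels were highest in knockout T3 oil (1721 ± 283 CPM) and knockout PBS oil livers (1684 ± 112 CPM), where they were above every wild-type PBS oil library (520.2 to 876 CPM). The lowest summed Gst level was that of knockout T3 CCl4 livers, at 4502 ± 517 CPM, and its range of 3731 to 4835 CPM overlapped only those of the knockout PBS CCl4 (4296 to 13252 CPM) and wild-type PBS CCl4 (2679 to 12849 CPM) groups.

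**Figure D1:**
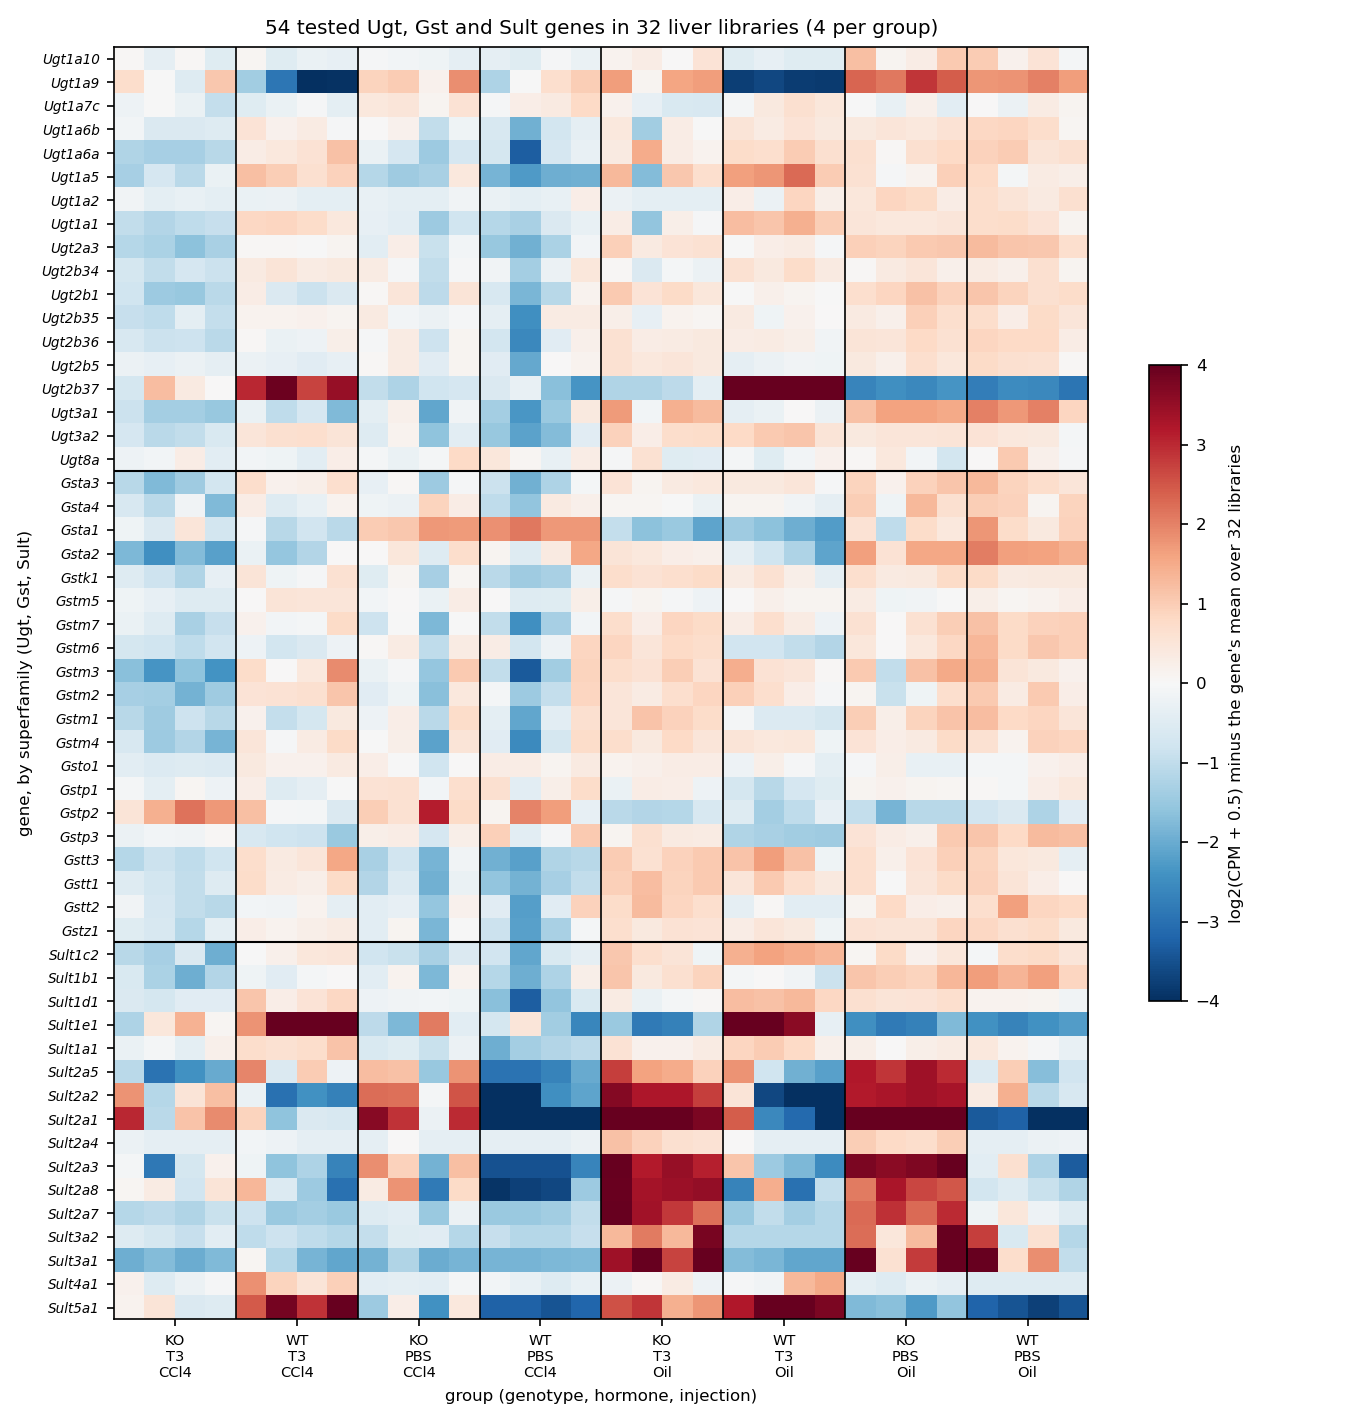
Level of each of the 54 tested conjugation genes in each of the 32 libraries, by superfamily (n = 4 livers a group). Values are log2(CPM + 0.5) minus the gene's mean over the 32 libraries. Sult1e1, Sult5a1 and Ugt2b37 are high in the wild-type T3 columns, Ugt1a9 and Gstp3 are low there, and the Sult2a genes are high in the knockout oil columns.

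T3 raised 9 of the 54 tested genes in wild-type livers on oil and lowered 17, so 48.1% were called at an adjusted p of 0.05 (edgeR's quasi-likelihood test with Benjamini-Hochberg adjustment over 15599 genes, used for every adjusted p below), against 35.3% of all genes tested, 19% higher and 16.2% lower. With libraries scaled to total counts in place of TMM, the split was 12 members higher and 16 lower, against 3427 and 1683 of all genes. In knockout livers on oil it raised 2 and lowered 2, a share of 7.41% beside 18.7% of all genes, 10.6% higher and 8.11% lower, and total-count scaling gave 2 members higher and 2 lower, against 1663 and 692 of all genes. That count of 4 became 11 with only the knockout oil groups in the fit, and 9 without the 2 far libraries. Of all genes, 2923 were called with all libraries, 2836 with only those groups and 3869 without the 2 far libraries. The 9 genes that rose were Ugt2b37, Sult5a1, Sult1e1, Sult4a1, Sult2a1, Ugt1a5, Sult1d1, Sult1c2 and Sult1a1. By superfamily, 7 Sult, 2 Ugt and 0 of 20 Gst genes rose, while 4 Sult, 6 Ugt and 7 Gst genes fell. No Gst gene rose with T3 on oil in either genotype under TMM scaling of all libraries, but Gstt3 was called higher in wild-type livers with total-count scaling, and Gstt1 in knockout livers with only the knockout oil groups in the fit. The median log2 change of the members was -0.28 in wild-type livers on oil. Marker levels of liver cells moved in the same comparison. Hepatocyte markers summed to 88810.3 CPM in wild-type T3 oil livers (72595 to 101083), against the 134942 CPM given above for wild-type PBS oil livers, and pericentral markers to 2637 CPM (2214 to 3171), against 8737 CPM (4227 to 12468). The sum of monocyte, macrophage and neutrophil markers was 209 CPM with T3 (159 to 318), against 48.6 CPM with PBS (32.4 to 63.8). None of these 3 pairs of ranges overlapped. By single gene, 0 of 5 hepatocyte markers rose and 2 fell, 3 of 8 pericentral markers rose and 2 fell, and 5 of 8 myeloid markers rose, and their part in the T3 response of the conjugation genes was not tested.

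The promoters of the 3 genes with the highest T3 response among those that reached 5 CPM, of Ugt2b5, a close relative of Ugt2b37 that did not rise, and of Ugt1a9, which fell, are printed here because the results below turn on these genes. Each is the 300 bases from 250 before to 50 after the start site in the 5′ to 3′ direction of the gene, from RefSeq on GRCm38.p6. Sult1e1 is at chr5:87591562-87591861, Sult5a1 at chr8:123158231-123158530, Ugt2b37 at chr5:87254739-87255038 and Ugt2b5 at chr5:87140291-87140590, all on the minus strand, and Ugt1a9 is at chr1:88070529-88070828 on the plus strand. Capitals mark AGGTCA, the core hexamer that nuclear receptors bind, or its reverse complement TGACCT.
Sult1e1: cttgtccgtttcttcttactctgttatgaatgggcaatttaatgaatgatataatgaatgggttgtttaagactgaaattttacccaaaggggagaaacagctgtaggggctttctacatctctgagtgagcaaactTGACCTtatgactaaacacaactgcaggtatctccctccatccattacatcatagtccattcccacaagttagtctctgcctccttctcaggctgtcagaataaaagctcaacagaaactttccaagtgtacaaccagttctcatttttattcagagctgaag
Sult5a1: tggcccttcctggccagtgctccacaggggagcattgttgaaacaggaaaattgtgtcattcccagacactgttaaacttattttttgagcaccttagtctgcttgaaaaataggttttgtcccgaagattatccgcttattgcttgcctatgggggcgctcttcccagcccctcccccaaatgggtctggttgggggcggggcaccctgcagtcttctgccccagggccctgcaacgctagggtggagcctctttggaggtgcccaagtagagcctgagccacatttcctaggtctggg
Ugt2b37: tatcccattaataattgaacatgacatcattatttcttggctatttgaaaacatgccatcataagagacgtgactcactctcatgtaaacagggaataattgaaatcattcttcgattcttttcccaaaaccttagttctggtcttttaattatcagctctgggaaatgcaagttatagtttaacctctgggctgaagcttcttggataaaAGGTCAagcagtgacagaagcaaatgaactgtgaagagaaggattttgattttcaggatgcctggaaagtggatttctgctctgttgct
Ugt2b5: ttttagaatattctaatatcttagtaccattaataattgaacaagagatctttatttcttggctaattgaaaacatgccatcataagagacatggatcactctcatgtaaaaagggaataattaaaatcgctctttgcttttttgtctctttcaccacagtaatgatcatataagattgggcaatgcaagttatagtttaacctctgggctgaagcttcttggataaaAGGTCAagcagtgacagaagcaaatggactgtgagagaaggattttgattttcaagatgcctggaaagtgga
Ugt1a9: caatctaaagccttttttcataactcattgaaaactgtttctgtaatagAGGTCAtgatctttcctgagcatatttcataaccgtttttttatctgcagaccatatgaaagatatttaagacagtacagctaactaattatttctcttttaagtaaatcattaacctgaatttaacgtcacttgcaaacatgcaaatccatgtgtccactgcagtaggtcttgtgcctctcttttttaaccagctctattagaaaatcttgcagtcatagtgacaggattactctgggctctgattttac
Among the 65 genes, 57 had such a window, and 12 of their 68 promoters held AGGTCA on either strand (17.6%), against 16.3% of 32851 promoters of the genome. The spaced repeat of AGGTCA, a 2nd copy after 4 bases of any kind, searched on both strands, was in 0 of the 68 and in 0.0152% of all promoters. Counted from the start site, the hexamer began at -39 in Ugt2b37, at -22 in Ugt2b5 and at -201 in Ugt1a9, and TGACCT began at -113 in Sult1e1. The Sult5a1 window held neither form. The Ugt2b37 and Ugt2b5 windows matched at 248 of 324 aligned positions (76.5%), with a longest shared run of 72 bases. These letters are a description of the windows and not evidence of binding.

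Ugt2b37 (ENSMUSG00000057425, chr5:87240493-87254804, minus strand, GRCm38) belongs to the Ugt2b cluster, whose enzymes glucuronidate steroids and drugs. Its level was 93.8, 123, 130.2 and 85.6 CPM in the 4 wild-type T3 oil livers, against 0.0562, 0.165, 0.126 and 0 CPM in wild-type PBS oil livers, where the 4 libraries together held 7 counts. Knockout livers on oil had 1.14, 1.12, 1.33 and 2.39 CPM with T3, against 0.1, 0.185, 0.132 and 0.236 CPM with PBS. T3 livers were above PBS livers without overlap in both genotypes, and the lowest wild-type T3 oil liver was far above the highest knockout liver. The log2 change was 10.16 ± 0.64 in wild-type (± SE; adjusted p = 1.03e-12) and 3.18 ± 0.71 in knockout livers (adjusted p = 0.00188), and the knockout-minus-wild-type difference was -6.98 ± 1.42 (adjusted p = 0.00139). Each SE is worked back from its test statistic, so the SEs of separate changes do not combine into that of their difference. Its neighbour Ugt2b5 averaged 369 ± 23.8 CPM in wild-type T3 oil livers, against 624 ± 124 CPM in wild-type PBS oil livers. That was a log2 change of -0.76 (adjusted p = 0.0204), which lost its call without replicate 1 of either group (adjusted p up to 0.065). Of the distinct 50-base words in its transcripts, Ugt2b37 shared 18.3% with other genes, and 15.2% with Ugt2b5. Ugt2b5 shared 41.7% with other genes, most of them with Ugt2b38 (34.8%). Some reads of either gene may therefore have been divided with other genes.

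Sult5a1 (ENSMUSG00000000739, chr8:123140192-123158315, minus strand) is a sulfotransferase whose substrates are little known. It reached 60.4, 149.9, 112 and 89.3 CPM in wild-type T3 oil livers, against 0.225, 0.11, 0 and 0.105 CPM in wild-type PBS oil livers, which held 8 counts together. In knockout livers on oil it was 37.9, 48.1, 17.1 and 21.9 CPM with T3, against 1.45, 1.6, 0.88 and 1.71 CPM with PBS. T3 and PBS livers did not overlap in either genotype, and the knockout response was smaller, with a log2 change of 4.48 ± 0.57 (adjusted p = 2.53e-06) beside 9.90 ± 0.80 in wild-type livers (adjusted p = 1.49e-10), and the difference between the responses was -5.42 ± 1.07 (adjusted p = 0.00104). On CCl4 the levels were 36.2, 94.4, 49 and 147 CPM in wild-type T3 livers, against 0.2, 0.206, 0.107 and 0.242 CPM in wild-type PBS livers, a change of 8.72 ± 0.73 (adjusted p = 3.67e-10). Knockout livers on CCl4 had 6.78, 8.97, 3.96 and 4.17 CPM with T3, against 1.93, 7.46, 0.738 and 8.45 CPM with PBS. Those groups overlapped, the change was 0.39 ± 0.50 (adjusted p = 0.77), and the difference between genotypes was -8.33 ± 0.88 (adjusted p = 1.47e-07).

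Sult1e1 (ENSMUSG00000029272, chr5:87575969-87591594, minus strand), estrogen sulfotransferase, inactivates estrogens and also sulfates iodothyronines. It was 201, 128, 42.5 and 2.33 CPM in wild-type T3 oil livers, against 0.169, 0.0549, 0.168 and 0.262 CPM in wild-type PBS oil livers (13 counts together). Knockout oil livers had 0.774, 0, 0.0493 and 1.03 CPM with T3, against 0.15, 0, 0.044 and 0.532 CPM with PBS. Every wild-type T3 oil liver was above every other oil liver, although the 4 differed widely among themselves. The wild-type change on oil was 9.10 ± 1.54 (adjusted p = 2.85e-05), and that of the knockout was 1.38 ± 2.22 (adjusted p = 0.725). The test of the difference between these responses gave -7.71 ± 3.71 (adjusted p = 0.185), which did not pass the threshold, so a genotype difference in the response on oil was not shown. Between the T3 groups themselves the knockout was lower on oil (log2 difference -7.65 ± 1.37, adjusted p = 0.000244). On CCl4 the levels were 11.8, 82.4, 89.6 and 492 CPM in wild-type T3 livers, against 1.68, 4.41, 0.858 and 0.0808 CPM in wild-type PBS livers. Knockout CCl4 livers had 1.01, 4.31, 8.88 and 3.22 CPM with T3, against 1.22, 0.53, 14.6 and 2.12 CPM with PBS, where replicate 3 stood apart. The wild-type T3 livers were above the wild-type PBS livers without overlap, and the knockout groups overlapped. The wild-type change on CCl4 was 6.59 ± 1.21 (adjusted p = 8.69e-05) and the knockout-minus-wild-type difference was -6.68 ± 1.52 (adjusted p = 0.00211).

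**Figure D2:**
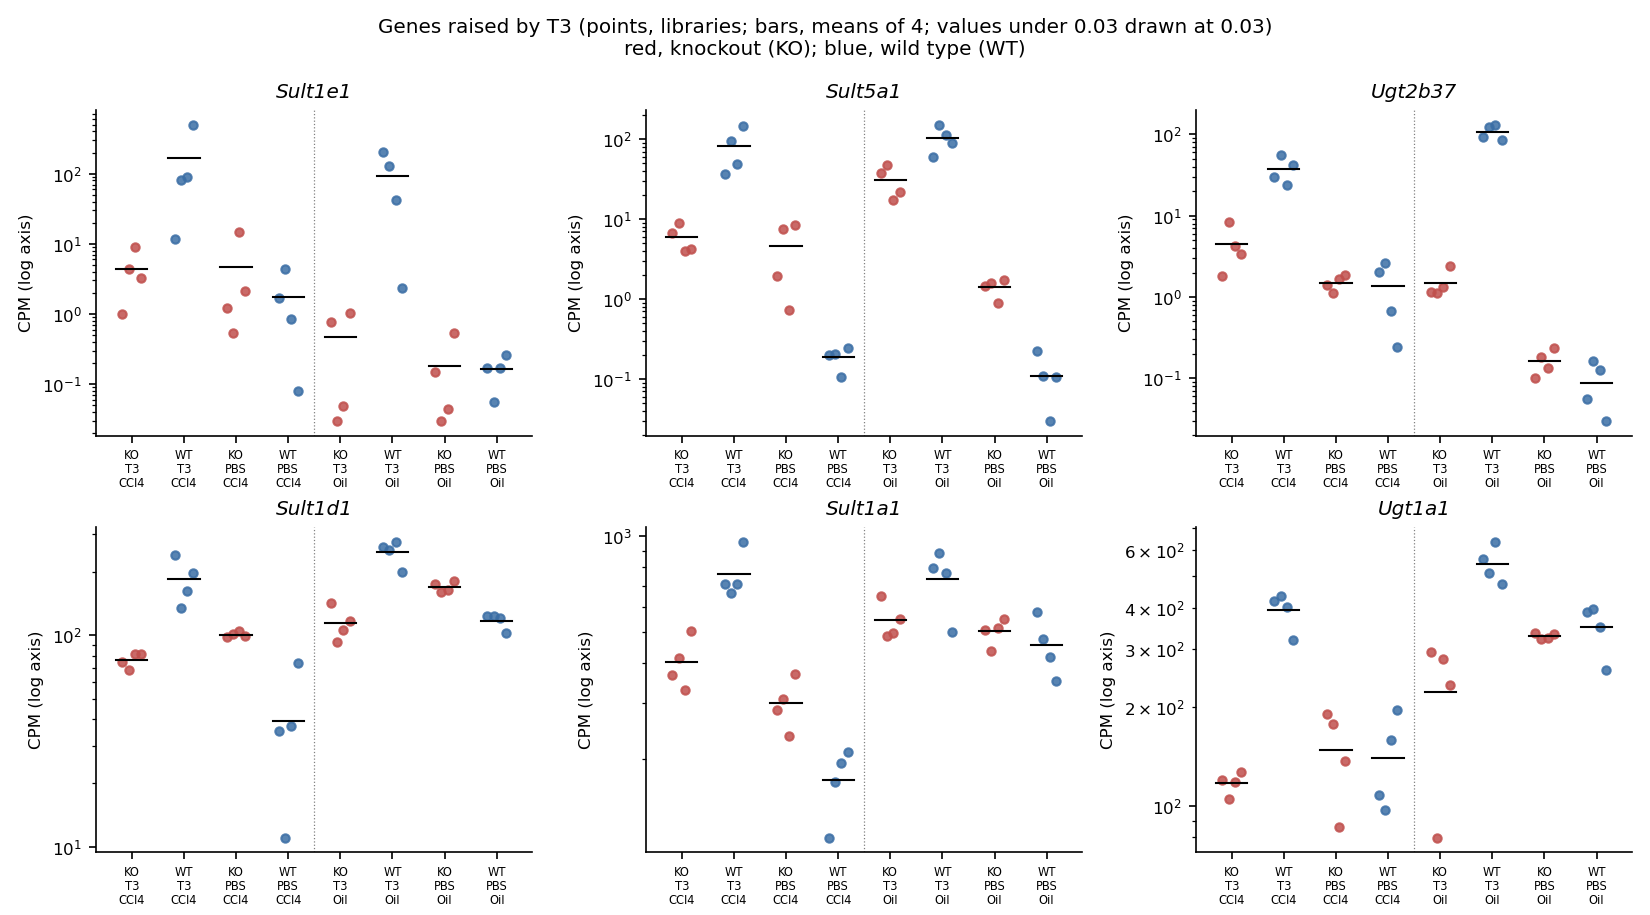
Level in each library (CPM, log axis; points are livers, bars are group means, n = 4) of 6 conjugation genes that T3 raised in wild-type livers. Wild-type T3 livers are above wild-type PBS livers on both injections for Sult1e1, Sult5a1, Ugt2b37, Sult1d1 and Ugt1a1, and on CCl4 only for Sult1a1. The Ugt1a1 difference on oil was not called.

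The phenol sulfotransferases moved less. Sult1d1, which sulfates dopamine and other small phenols, was 261, 252, 276 and 199 CPM in wild-type T3 oil livers, against 124, 123, 121 and 102 CPM in wild-type PBS oil livers, a rise of 1.07 ± 0.28 (adjusted p = 0.00329). In wild-type CCl4 livers it was 239.8, 134, 162 and 198 CPM with T3, against 35.1, 11, 37.1 and 74 CPM with PBS, a rise of 2.22 ± 0.29 (adjusted p = 8.2e-07). Neither pair of groups overlapped. Its response was smaller in knockout livers, with a knockout-minus-wild-type difference of -1.64 ± 0.39 on oil (adjusted p = 0.0057) and -2.62 ± 0.40 on CCl4 (adjusted p = 2.99e-05). Sult1a1 was 708, 666, 707 and 961 CPM in wild-type T3 CCl4 livers, against 113, 169, 194 and 209 CPM in wild-type PBS CCl4 livers, and 794, 889, 765 and 501 CPM in wild-type T3 oil livers, against 580.1, 476, 418 and 352 CPM in wild-type PBS oil livers. The groups overlapped on oil and were far apart on CCl4. Sult1a1 rose by 2.15 ± 0.21 on CCl4 (adjusted p = 4.64e-09) and by 0.69 ± 0.20 on oil (adjusted p = 0.00712), and the rise on CCl4 was larger by 1.46 ± 0.28 (adjusted p = 0.000782). In knockout CCl4 livers the Sult1a1 change was 0.43 ± 0.20 (adjusted p = 0.271). Sult1c2, a phenol sulfotransferase, rose by 1.01 on oil (adjusted p = 0.0165) and 1.28 on CCl4 (adjusted p = 0.00362) in wild-type livers, and the call on oil was lost without wild-type PBS oil replicate 1 (adjusted p = 0.0644). Sult1b1, a sulfotransferase of thyroid hormones and small phenols, went the other way on oil, with 14.1 ± 3.59 CPM in wild-type T3 livers, against 45 ± 10.5 CPM in wild-type PBS livers, a log2 change of -1.67 (adjusted p = 0.000794). Sult4a1, an orphan sulfotransferase of brain, averaged 0.78 ± 0.715 CPM in wild-type T3 oil livers and had no count in the 4 wild-type PBS oil livers. Its calls therefore rest on few counts.

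Within the Ugt1a locus, whose genes share their 3′ exons and differ in the first, T3 raised Ugt1a5 and lowered Ugt1a9 and Ugt1a10 on oil. Between 50% and 61% of the exon bases of the Ugt1a genes are shared, so a read from the common exons cannot be placed and each value is uncertain. Ugt1a9 (ENSMUSG00000090175, chr1:88070800-88218997, plus strand), whose human counterpart glucuronidates bulky phenols, was 0.566, 0.654, 0.552 and 0.527 CPM in wild-type T3 oil livers, against 48.3, 50.2, 57.7 and 45.7 CPM in wild-type PBS oil livers. Knockout oil livers had 45.3, 15.3, 42.4 and 46.1 CPM with T3, against 72.3, 62, 104 and 76.3 CPM with PBS. The groups did not overlap in either genotype, but wild-type T3 livers were all under 1 CPM while knockout T3 livers stayed above 15 CPM. Ugt1a9 fell by 6.45 ± 0.68 on the log2 scale in wild-type livers on oil (adjusted p = 1.86e-08), was not called in knockout livers (-1.08 ± 0.49, adjusted p = 0.128), and the difference between them was 5.37 ± 0.82 (adjusted p = 4.97e-05). On CCl4 it was 5.03, 1.45, 0.202 and 0.436 CPM in wild-type T3 livers, against 5.65, 13.9, 22.6 and 28.1 CPM in wild-type PBS livers, a change of -3.29 ± 0.58 (adjusted p = 5.25e-05), and the genotype difference was 2.61 ± 0.75 (adjusted p = 0.0126). Ugt1a5 rose to 177 ± 61.7 CPM in wild-type T3 oil livers, against 67.2 ± 17.7 CPM in wild-type PBS oil livers (1.39, adjusted p = 0.0106). Ugt1a1, the bilirubin-conjugating enzyme, was 562, 512, 635 and 471 CPM in wild-type T3 oil livers, against 388, 397, 351 and 259 CPM in wild-type PBS oil livers, a difference of 0.65 ± 0.27 (adjusted p = 0.0617) that was not called although the groups did not overlap. On CCl4 it was 421, 433, 401 and 319.7 CPM in wild-type T3 livers, against 108, 96.8, 159 and 195 CPM in wild-type PBS livers, and it rose by 1.49 ± 0.27 (adjusted p = 8.6e-05). A gene on the opposite strand overlaps 41.5% of the Ugt1a1 exons, and with no strand setting stated the strands cannot be separated.

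Among the Gst genes, T3 lowered Gsta1, Gsta2, Gstp3, Gstm6, Gstt2, Gstm1 and Gstp1 in wild-type livers on oil. Gstp3 (ENSMUSG00000058216, chr19:4057477-4059569) is a pi-class gene that shares no 50-base word with another gene. It was 12.7, 12, 11.1 and 10.8 CPM in wild-type T3 oil livers, against 65.1, 52.2, 73.3 and 70.2 CPM in wild-type PBS oil livers, and 18.9, 17, 16.8 and 10.4 CPM in wild-type T3 CCl4 livers, against 59, 22.1, 28.9 and 61.9 CPM in wild-type PBS CCl4 livers. Knockout livers on oil had 32.4, 47.2, 38.4 and 37.7 CPM with T3, against 44, 37.4, 34.9 and 62.1 CPM with PBS. The wild-type T3 and PBS groups did not overlap on either injection, and the knockout groups on oil did. Gstp3 changed by -2.48 ± 0.26 on oil (adjusted p = 2.24e-08) and -1.45 ± 0.26 on CCl4 (adjusted p = 5.75e-05) in wild-type livers, and the knockout response differed by 2.28 ± 0.36 on oil (adjusted p = 6.85e-05) and 1.26 ± 0.36 on CCl4 (adjusted p = 0.0109). Gsta1, an alpha-class transferase induced by electrophiles, was called lower with T3 in each of the 4 settings. It was 7.22, 6.19, 4.83 and 3.91 CPM in wild-type T3 oil livers, against 70.0, 34.3, 26.5 and 38.5 CPM in wild-type PBS oil livers, and 10.2, 6.15, 6.95 and 4.33 CPM in knockout T3 oil livers, against 30.7, 9.74, 33.7 and 27.1 CPM in knockout PBS oil livers. The groups did not overlap in wild-type livers, and in knockout livers PBS replicate 2 lay within the T3 range. The changes were -2.93 ± 0.37 in wild-type on oil (adjusted p = 3.02e-07), -1.87 ± 0.36 in knockout on oil (adjusted p = 0.000398), -2.59 ± 0.35 in wild-type on CCl4 (adjusted p = 1.69e-06) and -1.61 ± 0.34 in knockout on CCl4 (adjusted p = 0.00901). The last call was lost without knockout T3 CCl4 replicate 4 (adjusted p = 0.0517). Of the 50-base words of Gsta1, 90.5% also occur in another gene, most of them in Gm3776, so its reads cannot be told apart from theirs with certainty. Gsta2 averaged 24.4 ± 11.4 CPM in wild-type T3 oil livers, against 159 ± 30.2 CPM in wild-type PBS oil livers (-2.70, adjusted p = 3.98e-06).

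Gstm1, the most abundant member, fell by 1.32 ± 0.39 with T3 in wild-type livers on oil (adjusted p = 0.00839), with 4464, 3246, 3252 and 2885 CPM in wild-type T3 oil livers, against 11123, 8256, 8557 and 6616 CPM in wild-type PBS oil livers. Gstm6 fell by 1.97 ± 0.26 (adjusted p = 8.7e-07), and its response differed in the knockout by 2.23 ± 0.36 (adjusted p = 0.000104). Most of the fall in summed Gst transcripts came from mu-class genes, whose sum was 5024 ± 1229 CPM in wild-type T3 oil livers, against 10479 ± 2340.0 CPM in wild-type PBS oil livers. Knockout T3 oil livers had a mu-class sum of 10169 ± 1514 CPM, against 10303 ± 2844 CPM in knockout PBS oil livers, and those ranges overlapped.

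**Figure D3:**
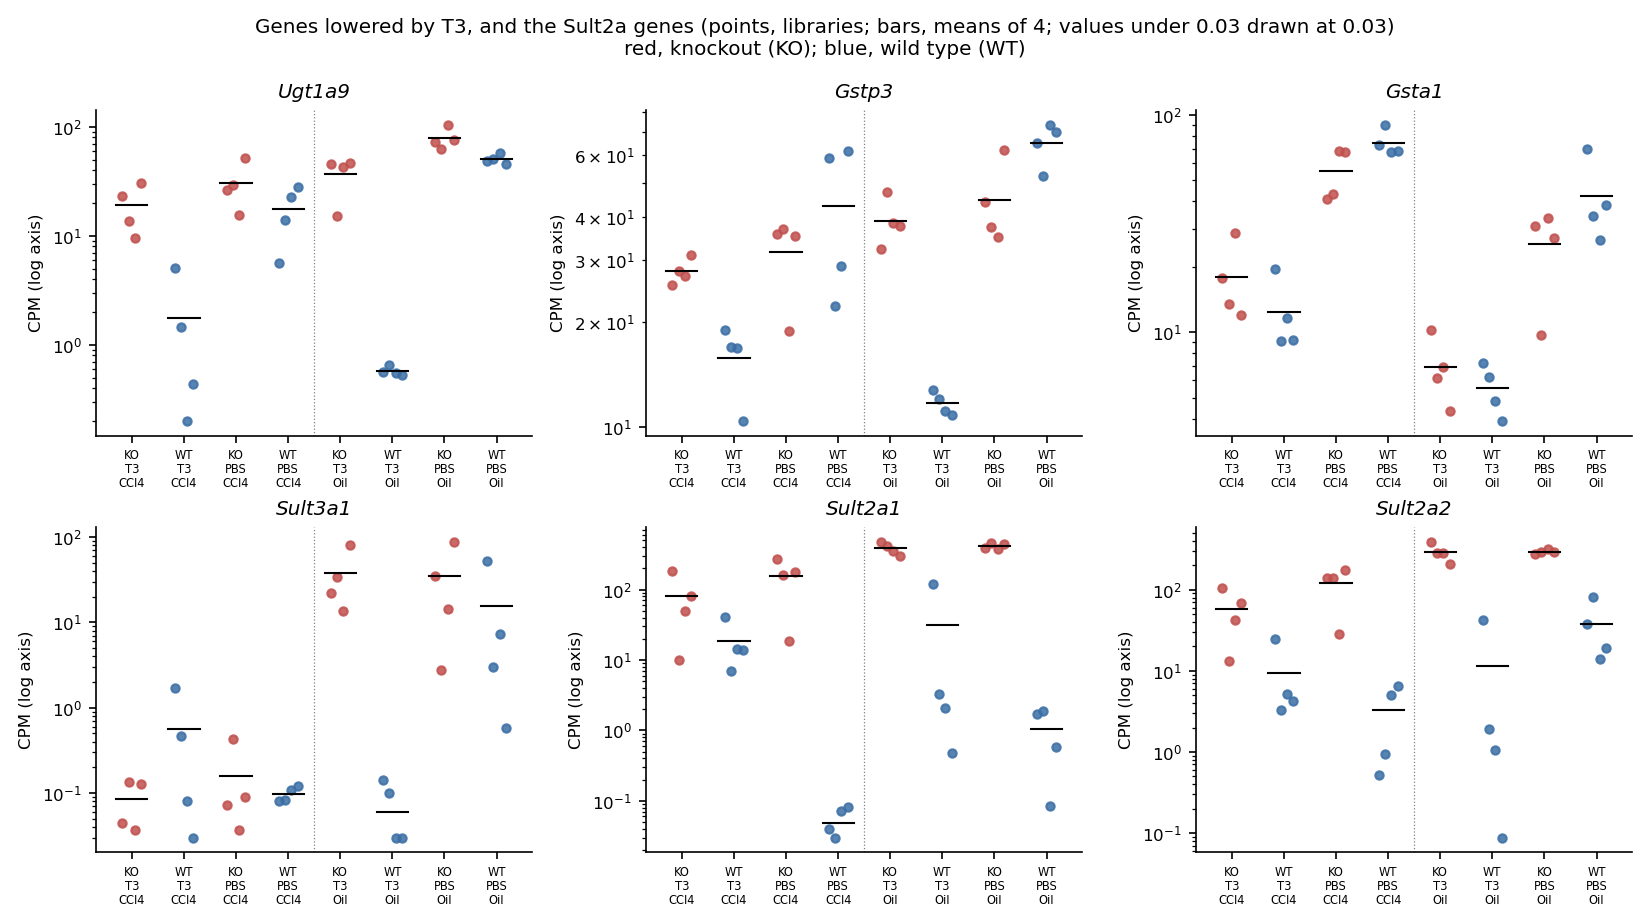
Level in each library (CPM, log axis; points are livers, bars are group means, n = 4; values under 0.03 are drawn at 0.03) of Ugt1a9, Gstp3, Gsta1, Sult3a1, Sult2a1 and Sult2a2. Ugt1a9 and Gstp3 have their lowest group means in wild-type T3 oil livers, and Sult2a1 and Sult2a2 have higher means in knockout than in wild-type livers on both treatments and injections.

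In livers without T3, Sult2a genes were higher in the knockout. On PBS and oil, 4 members were higher in knockout livers and 0 lower (7.41%, against 0.538% of all genes, 0.404% higher and 0.135% lower), and on PBS and CCl4 8 were higher and 0 lower (14.8%, against 2.25% of all genes, 1.21% higher and 1.04% lower). Total-count scaling gave 8 members higher and 0 lower, against 106 and 246 of all genes on CCl4. All 4 on oil were Sult2a genes, whose enzymes sulfate hydroxysteroids such as DHEA and bile acids and are expressed mainly in females in mouse liver. Sult2a1 (ENSMUSG00000078798, chr7:13796246-13837409) was 389.7, 454, 372 and 444 CPM in knockout PBS oil livers, against 1.69, 1.86, 0.0842 and 0.575 CPM in wild-type PBS oil livers. On CCl4 it was 275, 164, 18.3 and 175 CPM in knockout PBS livers, against 0.0401, 0, 0.0715 and 0.0808 CPM in wild-type PBS livers, with 5 counts over those 4 libraries. No knockout PBS library overlapped its wild-type group. The log2 difference was 8.67 ± 1.36 on oil (adjusted p = 0.000543) and 11.49 ± 1.71 on CCl4 (adjusted p = 0.000357). In knockout PBS oil livers Sult2a1 and Sult2a2 ranked 4 and 5 per length among all members.

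Sult2a3 was 76.2, 67, 74.3 and 98.1 CPM in knockout PBS oil livers, against 3.71, 8.28, 1.85 and 0.0523 CPM in wild-type PBS oil livers (4.52 ± 0.90, adjusted p = 0.00999), a call lost without wild-type PBS oil replicate 3 (adjusted p = 0.0614). Sult2a7 averaged 8.26 ± 2.42 CPM in knockout PBS oil livers, against 0.836 ± 0.411 CPM in wild-type PBS oil livers (3.30 ± 0.56, adjusted p = 0.00182). Sult2a4 averaged 0.666 ± 0.115 CPM in knockout PBS oil livers, against 0.0236 ± 0.0276 CPM in wild-type PBS oil livers. Sult2a2 was 272, 289, 315 and 294 CPM in knockout PBS oil livers, against 37.6, 80.9, 13.9 and 18.9 CPM in wild-type PBS oil livers, and was not called there although the groups did not overlap. The summed Sult2 level was 927 ± 67.1 CPM in knockout PBS oil livers, against 54.3 ± 39.3 CPM in wild-type PBS oil livers. Sult2a1 shares 33.2% and Sult2a2 62.1% of its 50-base words with other genes. On CCl4 the 8 genes were Sult2a1, Sult2a3, Sult2a5, Sult2a2, Sult5a1, Sult2a8, Sult1d1 and Sult1a1. Without wild-type PBS CCl4 replicate 2 the count of 8 became 4, without knockout PBS CCl4 replicate 3 it became 15, and without wild-type PBS CCl4 replicate 4 it became 18, so the number rests on which of these libraries is kept. The calls over all genes moved the same way, from 351 to 70, 949 and 1746 without each of these libraries in turn. With only those 2 groups in the fit, 1 member and 3 of all genes were called. Sult5a1 differed by 4.57 ± 0.73 (adjusted p = 0.000664) and Sult1d1 by 1.36 ± 0.28 (adjusted p = 0.0107), and both were called whichever library was left out.

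With T3, Sult2a1 was 475, 418, 350.2 and 301 CPM in knockout oil livers, against 119.5, 3.27, 2.07 and 0.483 CPM in wild-type oil livers, where replicate 1 stood far above the others. The wild-type T3 response on oil, 4.94 ± 1.20 (adjusted p = 0.00183), rests on that library and had an adjusted p of 0.482 without it. On CCl4, T3 gave 40.5, 6.86, 14.4 and 13.7 CPM in wild-type livers, a rise of 8.43 ± 1.69 (adjusted p = 0.000237). Knockout T3 CCl4 livers had 181, 9.99, 49.1 and 81.7 CPM, so the T3 response on CCl4 differed between genotypes by -9.41 ± 1.98 (adjusted p = 0.00106). The wild-type T3 CCl4 livers were above every wild-type PBS CCl4 liver, and the knockout T3 and PBS groups overlapped on CCl4.

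Sult3a1, an amine sulfotransferase that is also expressed mainly in female mice, fell with T3 in wild-type livers on oil. Its level was 0.142, 0.101, 0 and 0 CPM in wild-type T3 oil livers (5 counts together), against 52.1, 2.96, 7.28 and 0.575 CPM in wild-type PBS oil livers, which were themselves very uneven. Knockout oil livers had 21.9, 33.8, 13.5 and 81.5 CPM with T3, against 35, 2.78, 14.3 and 87.7 CPM with PBS. The wild-type groups did not overlap, and neither did the knockout and wild-type T3 groups. The change was -7.93 ± 1.45 in wild-type (adjusted p = 8.06e-05) and 0.11 ± 0.81 in knockout livers (adjusted p = 0.951), a difference of 8.04 ± 1.73 (adjusted p = 0.00226). With CCl4 it was low in every group, at 0.037 to 0.133 CPM in knockout T3, 0 to 1.72 CPM in wild-type T3, 0.0369 to 0.433 CPM in knockout PBS and 0.0802 to 0.121 CPM in wild-type PBS livers. Its close relative Sult3a2 was also called lower with T3 in wild-type livers on oil.

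Some members were called in few comparisons or had few counts. Ugt8a, the ceramide galactosyltransferase of myelin, was called in 0 of the 16 comparisons, with a mean of 0.58 ± 0.423 CPM in wild-type PBS oil livers. Gsta4, which conjugates the lipid peroxidation product 4-hydroxynonenal, was called in 1 comparison, with CCl4 in wild-type PBS livers (-1.06, adjusted p = 0.0174), a call that needed both replicates 1 and 2 of the CCl4 group (adjusted p up to 0.0774). Ugt1a10 was 0 to 0.0503 CPM in wild-type T3 oil livers, against 0.157 to 0.9 CPM in wild-type PBS oil livers. With T3 in wild-type livers on oil Ugt3a1 fell by 1.98 ± 0.46 (adjusted p = 0.00124). Ugt2b1, Ugt2b34, Ugt2b35 and Ugt2b36 were never called higher with T3 or with CCl4. Of the 54 tested genes, 17 had a mean under 1 CPM in at least 1 group, among them Ugt1a2 and Ugt1a7c.

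Members called lower with CCl4 outnumbered those called higher in knockout T3, knockout PBS and wild-type PBS livers, and few were called in wild-type T3 livers. In wild-type livers on PBS, 3 of 54 rose and 36 fell (72.2%, against 46.2% of all genes, 24.6% higher and 21.6% lower), with a median log2 change of -1.43. In knockout livers on PBS 5 rose and 26 fell (57.4%, against 31.1% of all genes, 17.8% higher and 13.4% lower). That count of 31 became 20 without knockout PBS CCl4 replicate 3, where the calls over all genes went from 4854 to 2992. In knockout livers on T3 3 rose and 35 fell (70.4%, against 39.6% of all genes, 19.7% higher and 19.8% lower). In wild-type livers on T3 0 rose and 3 fell (5.56%, against 3.4% of all genes, 1.67% higher and 1.74% lower), and the median was 0.01. Those 3, Ugt1a2, Sult1c2 and Ugt2b37, each lost the call when one or another single library was left out. On total-count scaling, CCl4 gave 6 members higher and 28 lower, against 6941 and 1549 of all genes in wild-type livers on PBS, and 7 members higher and 22 lower, against 5467 and 866 of all genes in knockout livers on PBS. On T3 that scaling gave 4 members higher and 33 lower, against 3905 and 2166 of all genes in knockout livers, and 0 members higher and 3 lower, against 87 and 269 of all genes in wild-type livers. The fall on PBS ran through all superfamilies: 14 of 18 Ugt, 10 of 16 Sult and 12 of 20 Gst genes in wild-type livers. Of the hepatocyte markers, 4 of 5 fell in wild-type PBS livers with CCl4 (Alb with a log2 change of -1.38), as did 6 of 6 periportal and 5 of 8 pericentral markers, while 8 of 8 monocyte, macrophage and neutrophil markers rose, and no listed hepatocyte, zonal or myeloid marker was at 0 in any group. Their part in the fall of the conjugation genes was not tested.

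**Figure D4:**
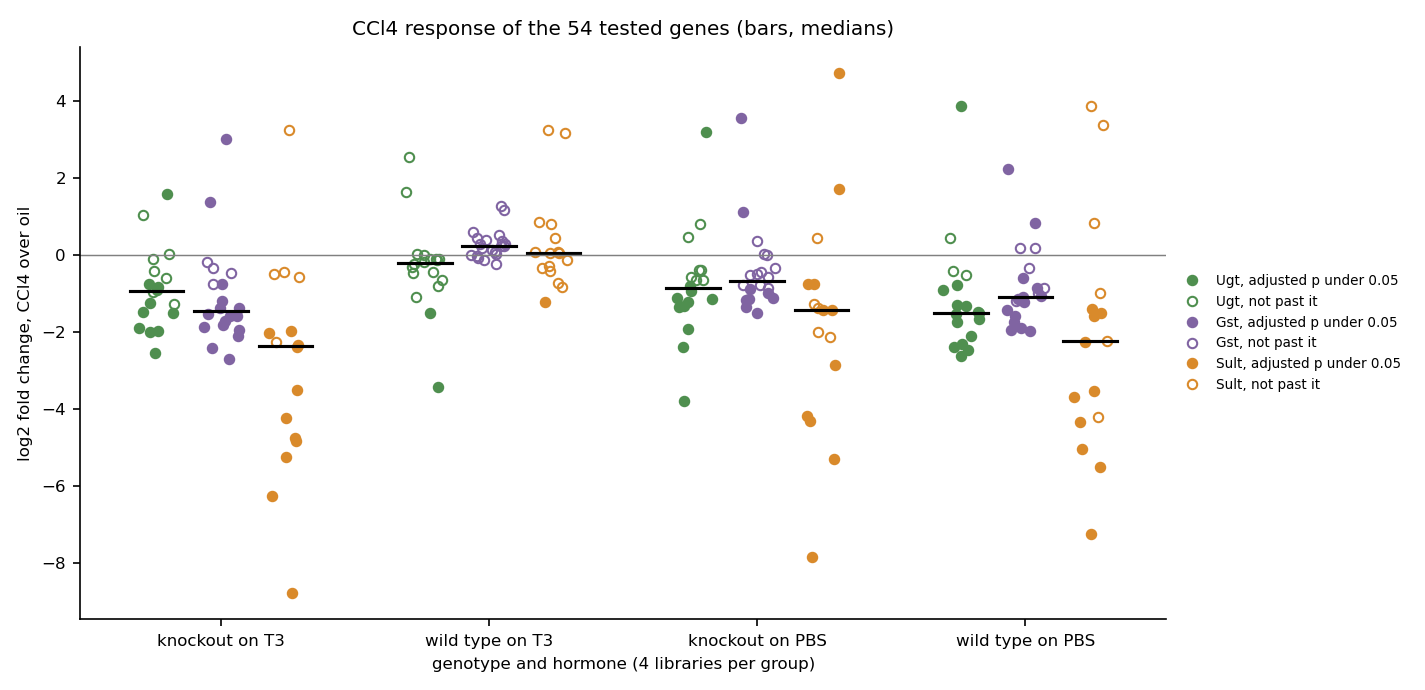
Log2 change with CCl4 of each of the 54 tested members in knockout T3, wild-type T3, knockout PBS and wild-type PBS livers (points are genes, filled where called; bars are medians of the Ugt, Gst and Sult genes). The points lie mostly below 0 in every setting except wild-type livers on T3, whose median is 0.01.

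Gsta3 was 754, 358, 573 and 1282 CPM in wild-type PBS CCl4 livers, against 3328, 2505, 2224 and 1903 CPM in wild-type PBS oil livers, a log2 change of -1.75 ± 0.31 (adjusted p = 8.42e-05). In wild-type T3 livers it was 2209.5, 1536, 1587 and 2145 CPM with CCl4, against 1776, 1793, 1919 and 1329 CPM with oil, a difference of 0.13 ± 0.31 (adjusted p = 0.914). The PBS groups did not overlap and the T3 groups overlapped. In knockout T3 livers it was 628, 399, 512 and 816 CPM with CCl4, against 1992, 1467, 1734 and 1827 CPM with oil, a log2 change of -1.58 ± 0.31 (adjusted p = 0.000334). The knockout T3 groups did not overlap either. Gstt1, a theta-class enzyme that conjugates halogenated methanes, was 90.8, 74.5, 108 and 138 CPM in wild-type PBS CCl4 livers, against 517, 393, 333 and 279 CPM in wild-type PBS oil livers (-1.89 ± 0.26, adjusted p = 4.5e-06). The groups did not overlap. Its change was -1.35 ± 0.26 in knockout PBS livers (adjusted p = 0.000449) and -1.71 ± 0.26 in knockout T3 livers (adjusted p = 2.14e-05). Ugt3a2, whose human counterpart uses sugars other than glucuronic acid, was 98.1, 63.5, 83.8 and 203 CPM in wild-type PBS CCl4 livers, against 410.4, 372, 369.9 and 266 CPM in wild-type PBS oil livers (-1.66 ± 0.28, adjusted p = 4.3e-05). The PBS groups did not overlap. In wild-type T3 livers the Ugt3a2 difference with CCl4 was -0.31 ± 0.27 (adjusted p = 0.691). Gstm1 was 3578, 1105, 3502 and 7364 CPM in wild-type PBS CCl4 livers, which spread widely, and its change against oil of -1.15 ± 0.38 (adjusted p = 0.0157) lost its call on leaving out replicate 2 of this CCl4 group or replicate 1 of the oil group (adjusted p up to 0.0604).

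A few members rose against this fall. Gstp2, a pi-class gene of low level in uninjured liver, was 3.13, 12.8, 10.3 and 2.18 CPM in wild-type PBS CCl4 livers, against 1.46, 1.76, 0.926 and 1.93 CPM in wild-type PBS oil livers, and 6.2, 4.67, 29.1 and 5.2 CPM in knockout PBS CCl4 livers, against 1.25, 0.432, 1.06 and 1.06 CPM in knockout PBS oil livers. Knockout T3 livers had 4.36, 8.57, 14.8 and 10.6 CPM with CCl4, against 1.08, 1.01, 1.03 and 1.65 CPM with oil. The CCl4 groups were above the oil groups without overlap in all 3 pairs. Gstp2 rose by 2.23 ± 0.59 in wild-type PBS (adjusted p = 0.00311), 3.55 ± 0.63 in knockout PBS (adjusted p = 0.00019) and 3.0 ± 0.61 in knockout T3 livers (adjusted p = 0.000419). The highest Gstp2 value of each PBS CCl4 group was that of its far library, wild-type replicate 2 (12.8 CPM) and knockout replicate 3 (29.1 CPM). The sizes of both changes on PBS include these libraries. In wild-type T3 livers the change was 1.27 ± 0.59 (adjusted p = 0.305). It shares 54.3% of its 50-base words with other genes and Gstp1 shares 33.7%, and Gstp1 was not called on PBS in either genotype. Ugt2b37 rose with CCl4 in the absence of T3, by 3.87 ± 0.77 in wild-type (adjusted p = 0.000238) and 3.20 ± 0.69 in knockout livers (adjusted p = 0.00126). Gsta1 rose by 1.38 ± 0.35 in knockout T3 livers (adjusted p = 0.00308). Its rises on PBS, 0.82 in wild-type (adjusted p = 0.0453) and 1.12 in knockout livers (adjusted p = 0.0141), were lost when single libraries were left out, 6 of 8 in wild-type and 2 of 8 in knockout livers, with an adjusted p of up to 0.16 and 0.0565. The response to CCl4 on PBS differed between knockout and wild-type livers for 0 members (0.0192% of all genes, 0% higher and 0.0192% lower) in edgeR's test. At an unadjusted p under 0.05 it differed for 4, and by DESeq2 for 0.

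**Figure D5:**
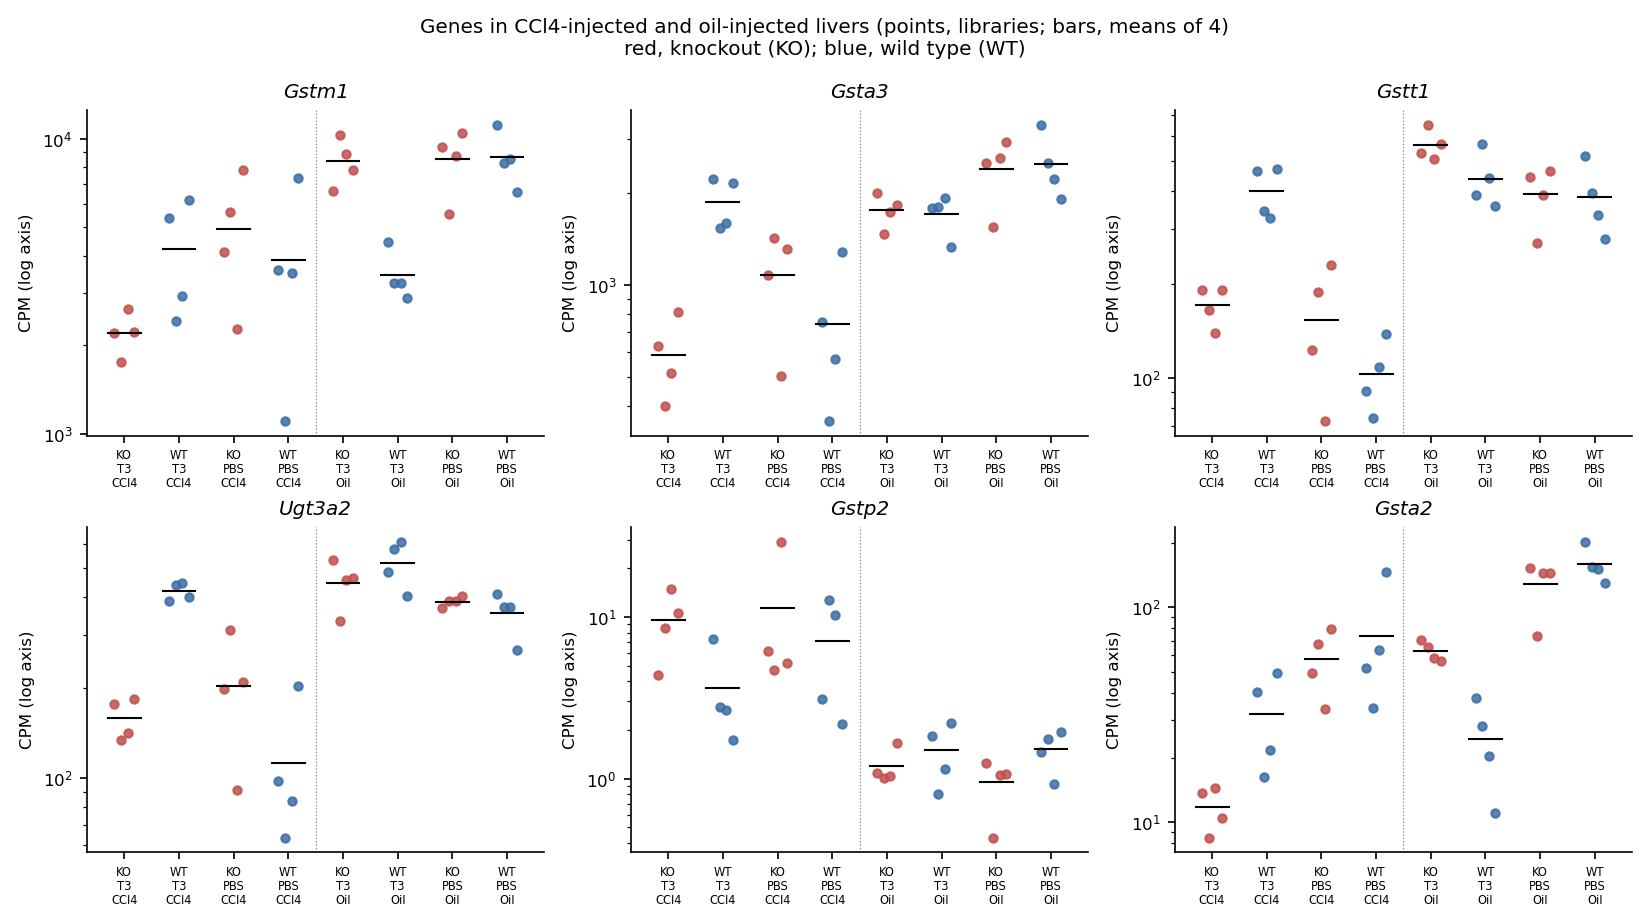
Level in each library (CPM, log axis; points are livers, bars are group means, n = 4) of Gstm1, Gsta3, Gstt1, Ugt3a2, Gstp2 and Gsta2. Gsta3, Gstt1 and Ugt3a2 have far lower means in CCl4 than in oil livers except in the wild-type T3 pair, and Gstp2 has a higher mean in CCl4 than in oil livers of all 4 pairs.

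T3 in CCl4-injected wild-type livers raised 24 of the 54 members and lowered 5 (53.7%, against 41.7% of all genes, 20% higher and 21.7% lower), with a median log2 change of 0.98. Total-count scaling gave 23 members higher and 8 lower, against 1671 and 6558 of all genes. All 9 genes that T3 raised on oil were among these 24. Of the 17 it lowered on oil, 4 were among the 5 lowered on CCl4, namely Gsta1, Gsta2, Gstp3 and Ugt1a9, of which the Gsta2 call on CCl4 was lost without wild-type T3 CCl4 replicate 2 or wild-type PBS CCl4 replicate 4 (adjusted p up to 0.134). Ugt2a3 was called in opposite directions, lower on oil (-0.91, adjusted p = 0.00564) and higher on CCl4 (1.09, adjusted p = 0.0012). The other 15 genes raised on CCl4 included Gsta3 (log2 change 1.33), Gstt1 (1.96), Gstt3 (2.40), Gstm7 (1.23), Gstk1 (1.22), the maleylacetoacetate isomerase Gstz1 (1.16), Ugt3a2 (1.90), Ugt1a6a (1.61) and Ugt1a6b (1.10). The test of the difference between the 2 responses called 23 members higher and 2 lower on CCl4 than on oil (46.3%, against 23.9% of all genes, 10.8% higher and 13.1% lower). Under total-count scaling these were 16 members higher and 2 lower, against 620 and 5384 of all genes. This is the same test as that of the CCl4 response between T3 and PBS in wild-type livers. That test gave 1.88 ± 0.44 for Gsta3 (adjusted p = 0.00338), 1.76 ± 0.36 for Gstt1 (adjusted p = 0.00148), 1.37 ± 0.36 for Gstm6 (adjusted p = 0.00788) and -5.38 ± 0.84 for Ugt2b37 (adjusted p = 0.000109), the last a smaller response on CCl4. The count of 25 became 16 without wild-type T3 CCl4 replicate 1 and 37 at most when another library was left out. Calls over all genes went from 3722 to 3333 without wild-type T3 CCl4 replicate 1. Hepatocyte markers moved with it, 3 of 5 higher in the same test, and 8 of 8 monocyte, macrophage and neutrophil markers were lower, and their part was not tested.

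In knockout livers on CCl4, T3 raised 1 member and lowered 5 (11.1%, against 2.54% of all genes, 1.77% higher and 0.769% lower), with a median of -0.59. Total-count scaling gave 0 members higher and 6 lower, against 179 and 226 of all genes. In the TMM-scaled fit the gene that rose was Ugt2b37, and those that fell were Sult2a5, Gsta2, Gsta1, Ugt2b1 and Ugt2a3. Gsta2 fell by 2.29 ± 0.40 (adjusted p = 0.0013) and was called whichever library was left out, which none of the other 5 was. Without knockout PBS CCl4 replicate 3, 15 members were called, and without knockout T3 CCl4 replicate 4 only 1. Of all genes, 582 and 165 were called without these libraries, against 396 with all libraries. The T3 response on CCl4 differed between genotypes for 32 members, 2 higher and 30 lower in the knockout (59.3%, against 22.7% of all genes, 10.3% higher and 12.4% lower), and on oil for 14, 8 higher and 6 lower (25.9%, against 12.2% of all genes, 5.58% higher and 6.64% lower). With total-count scaling the difference on CCl4 was called for 2 members higher and 27 lower, against 2610 and 1242 of all genes. The count of 14 on oil became 22 without the 2 far libraries, and the count of 32 on CCl4 became 21 with only the 4 groups in the fit. Calls over all genes went from 1906 to 2760 on oil and from 3538 to 2300 on CCl4 in those fits. On CCl4 this held in all superfamilies, with 10 Gst, 10 Sult and 10 Ugt genes lower. Gsta3 differed by -2.20 ± 0.44 (adjusted p = 0.000624), Gstt1 by -1.80 ± 0.36 (adjusted p = 0.000784), Ugt3a2 by -2.25 ± 0.39 (adjusted p = 0.000163) and Gstm3 by -3.50 ± 0.86 (adjusted p = 0.00388).

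Between the T3-treated genotypes, 2 members were higher and 27 lower in knockout CCl4 livers (53.7%, against 22.9% of all genes, 10.4% higher and 12.5% lower), while on oil 17 were higher and 8 lower (46.3%, against 16.3% of all genes, 7.14% higher and 9.21% lower). Scaled to total counts, the knockout had 3 members higher and 26 lower, against 2174 and 1383 of all genes on CCl4, and 18 members higher and 11 lower, against 759 and 1836 of all genes on oil. The zonal hepatocyte markers moved with the CCl4 comparison. Pericentral markers summed to 432 CPM in knockout T3 CCl4 livers (313 to 748), against 1906 CPM in wild-type T3 CCl4 livers (1609.5 to 2172), and 6 of 8 were called lower. Periportal markers summed to 2827 CPM (1715 to 4086), against 6994 CPM (5602 to 8917), and 3 of 6 were called lower. The general hepatocyte marker sum did not fall with them, at 107700 CPM in knockout T3 CCl4 livers (92924 to 121220). It was 87370 CPM in wild-type T3 CCl4 livers (73977 to 111427), and those ranges overlapped. On oil the hepatocyte marker sum was 146159 CPM in knockout T3 livers (127096 to 167244), against 88810.3 CPM in wild-type T3 livers (72595 to 101083), with 1 of 5 called higher. Apart from the hepatocyte sum on CCl4, the groups did not overlap in these sums. The part of these markers in the genotype difference of the conjugation genes was not tested. Among the members, the 2 that were higher on CCl4 were Ugt1a9, by 3.41 ± 0.58 (adjusted p = 0.000102), and Gstp3, by 0.82 ± 0.25 (adjusted p = 0.0193), a Gstp3 call that was lost without knockout T3 CCl4 replicate 4 or wild-type T3 CCl4 replicate 4 (adjusted p up to 0.088). Among the 27 were the mu-class genes Gstm3 at 111 to 189 CPM in knockout livers, against 584 to 2186 CPM in wild-type livers (-2.93 ± 0.63, adjusted p = 0.00121), and Gstm2 (-2.23 ± 0.40, adjusted p = 0.000205). Gsto1, an omega-class enzyme that reduces dehydroascorbate, was 96.1 to 106 CPM in knockout T3 CCl4 livers, against 158 to 184 CPM in wild-type T3 CCl4 livers (-0.78 ± 0.16, adjusted p = 0.000807). Sult1e1 differed by -5.25 ± 1.12 (adjusted p = 0.00105), Sult5a1 by -3.77 ± 0.52 (adjusted p = 5.84e-06) and Ugt1a1 by -1.75 ± 0.28 (adjusted p = 3.76e-05). The members together made up 0.708% of all counts in knockout T3 CCl4 livers, the lowest of the 8 groups, against 1.37% in wild-type T3 CCl4 livers, and 1.84% in knockout T3 oil livers, against 1.38% in wild-type T3 oil livers. On oil the 17 higher members included 6 Gst and 8 Sult genes, among them Sult3a1 (9.19 ± 1.44, adjusted p = 4.59e-05) and Ugt1a9 (6.01 ± 0.67, adjusted p = 2.16e-07).

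The genes around the conjugation step were read from lists chosen with earlier results of these data known. Their counts stand beside 35.3% of all genes called for T3 in wild-type livers on oil (19% higher, 16.2% lower), 41.7% for T3 on CCl4 (20% higher, 21.7% lower) and 46.2% for CCl4 on PBS (24.6% higher, 21.6% lower). Papss2, which makes PAPS, rose with T3 in wild-type livers by 2.89 ± 0.43 on oil (adjusted p = 4.26e-06) and 4.01 ± 0.45 on CCl4 (adjusted p = 7.58e-08). In knockout livers on oil it changed by 0.03 ± 0.40 (adjusted p = 0.973), and with CCl4 in wild-type PBS livers it fell by 1.66 ± 0.41 (adjusted p = 0.00175). Its isoenzyme Papss1 fell with T3 on oil, with a log2 change of -0.68 ± 0.19 (adjusted p = 0.00643). Of all 15 cofactor genes, T3 raised 3 and lowered 4 in wild-type livers on oil, and CCl4 raised 3 and lowered 6 on PBS. Slc7a11, the cystine importer that feeds glutathione synthesis, rose by 7.97 ± 0.74 with CCl4 in wild-type PBS livers (adjusted p = 2.82e-08). Ugdh, which makes UDP-glucuronate, was not called in any of those comparisons. Of 13 other conjugating enzymes, CCl4 lowered 10 and raised 0 in wild-type PBS livers, and T3 lowered 6 and raised 1 on oil. Nat1, an N-acetyltransferase, fell by 2.30 ± 0.38 with CCl4 (adjusted p = 3.16e-05).

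Of 9 tested genes of conjugate export and removal, T3 raised 2 and lowered 3 in wild-type livers on oil. Abcc3, the basolateral exporter of glucuronides, fell by 3.73 ± 0.31 there (adjusted p = 3.27e-10), and the knockout response differed by 3.76 ± 0.41 (adjusted p = 2.86e-07). Of 16 regulators of these enzymes, CCl4 lowered 13 and raised 0 in wild-type PBS livers, and T3 raised 3 and lowered 6 on oil and raised 6 and lowered 0 on CCl4. Nr1i3 (CAR), the xenobiotic receptor, fell with T3 on oil, with a log2 change of -2.10 ± 0.59 (adjusted p = 0.00623), and Cux2, a repressor expressed mainly in female liver, rose by 4.09 ± 0.54 (adjusted p = 6.56e-07). Of 8 targets of CAR, PXR and AhR outside these families, T3 raised 1 and lowered 4 on oil, among them Cyp3a11 with a log2 change of -3.90 ± 0.61 (adjusted p = 9.02e-06). Of 10 targets of NRF2, the electrophile sensor that also drives several Gst genes, CCl4 raised 8 and lowered 1 in wild-type PBS livers, and T3 raised 1 and lowered 5 on CCl4. Of 9 female-biased liver genes, T3 raised 5 and lowered 3 in wild-type livers on oil. Cyp3a41a rose by 11.56 ± 1.33 (adjusted p = 7.25e-08). Of 6 tested male-biased genes, T3 raised 3 and lowered 3.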

How the data were processed

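The values are raw whole-number counts per gene, deposited by the authors as a single table with 32 columns of libraries. STAR 2.7.9a, cutadapt, Trim Galore and FastQC 0.11.5 and the build GRCm38 are named in the submitters' processing notes. How reads were counted, on which strand and against which annotation is not given in the sources used here, and the labels' protocols name both TruSeq v2 and TruSeq Stranded kits without tying them to libraries, so a kit and a group cannot be told apart. The sample numbers in the column names run in blocks by group, so an order they may stand for and the group cannot be told apart.

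Symbols, positions and exon lengths came from GENCODE vM21 (GRCm38), and promoters from RefSeq. Counts were scaled with TMM factors to CPM in edgeR 4.0.16 (R 4.3.3), and RPKM is CPM per kilobase of exon union. Genes passed filterByExpr by group (minimum count 10, minimum total 15), which kept 15599. All 32 libraries entered 1 quasi-likelihood fit with a mean per group, from which 12 differences and 4 interactions were tested, with Benjamini-Hochberg adjustment over all genes and a threshold of 0.05. SE is the absolute log2 fold change divided by the root of F, and is not a separately estimated standard error. The replicates are separate animals by their labels. On counts simulated for T3 in wild type on oil over 15599 genes, 80 of 100 genes changed by 1 log2 unit and 98 of 100 changed by 2 were recovered, with 6 false calls. The changed genes were drawn only from those above a minimum mean level, and each gene was simulated from its mean over all libraries. Recovery of genes with few counts is therefore not known. Alternatives were median-ratio and total-count scaling, no filter, fits on the compared groups only, a replicate block, DESeq2 1.42.0, each library left out, and the 2 far libraries left out. Shared sequence is the share of a gene's distinct 50-base transcript words that also occur in another gene. The members and lists were chosen with earlier results of these data known. All members may be named, with values per library for those that reached 5 CPM in a group and had one of the 4 smallest adjusted p in their family in main comparisons, and the 18 of them given library by library were picked after their values were seen.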

Additional observations from a re-analysis of the deposited data

Results flagged for a closer look

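Over the 18 genes given by library, 16 of 144 gene-by-group sets of 4 livers had 1 liver far from the other 3, where chance gives about 1 in 20 sets. Wild-type T3 oil replicate 1 stood high in Sult2a1 (119.5 CPM), Sult2a2 (42.8 CPM) and Sult2a3 (11.5 CPM). Wild-type T3 CCl4 replicate 4 stood high in Sult1e1 (492 CPM) and Sult1a1 (961 CPM), and replicate 1 of that group in Sult2a2 (24.8 CPM). Knockout PBS CCl4 replicate 3, one of the 2 libraries far from their group over all genes, stood high in Sult1e1 (14.6 CPM) and Gstp2 (29.1 CPM) and low in Gstp3 (18.8 CPM). Knockout PBS CCl4 replicate 2 had 0.433 CPM of Sult3a1. Among knockout T3 oil livers, replicate 4 was high in Ugt2b37 (2.39 CPM) and Gstp2 (1.65 CPM), and replicate 2 low in Ugt1a9 (15.3 CPM). Wild-type PBS oil replicate 1 was high in Sult3a1 (52.1 CPM) and replicate 4 low in Sult1d1 (102 CPM). Wild-type PBS CCl4 replicate 4 was the one liver of its group with Sult2a3 counts (0.404 CPM).

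Responses that differed by the test of the difference itself are given here for these 18 genes as log2 values. For T3 on oil, knockout minus wild type, the difference was -5.42 for Sult5a1, -6.98 for Ugt2b37, -1.64 for Sult1d1, -1.21 for Ugt1a1 and -5.04 for Sult2a1. It was positive, 5.37, for Ugt1a9, 2.28 for Gstp3 and 8.04 for Sult3a1, all of which fell with T3 in wild-type livers. The Ugt1a1 and Sult2a1 calls were lost when single libraries were left out, 7 and 3 of 16.

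For T3 on CCl4, knockout minus wild type, the difference was -6.68 for Sult1e1, -8.33 for Sult5a1, -3.21 for Ugt2b37, -2.62 for Sult1d1, -1.72 for Sult1a1, -1.83 for Ugt1a1 and -9.41 for Sult2a1. It was -5.98 for Sult2a3, -2.20 for Gsta3, -1.80 for Gstt1 and -2.25 for Ugt3a2, and positive for Ugt1a9 (2.61) and Gstp3 (1.26).

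Between the T3 responses of wild-type livers, CCl4 minus oil, the difference was -5.38 for Ugt2b37, 1.15 for Sult1d1, 1.46 for Sult1a1, 3.15 for Ugt1a9, 1.03 for Gstp3, 10.41 for Sult3a1, 1.88 for Gsta3, 1.76 for Gstt1 and 1.35 for Ugt3a2. The Sult1d1, Gstp3, Ugt1a9 and Sult3a1 calls were lost when single libraries were left out, 8, 10, 1 and 1 of 16.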

How the results depend on the processing

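Of 313 member values called, 232 kept their call whichever 1 library was left out and 0 changed sign under any alternative. The call was kept by 312 under median-ratio scaling, 285 under total-count scaling, 294 with no filter, 308 with the replicate block and 300 without the 2 far libraries. It was kept by 309 of 312 under DESeq2 and by 242 of 292 with only the groups compared in the fit. With only the groups compared, the members called numbered 11 for T3 in knockout on oil, 1 for T3 in knockout on CCl4, 25 for CCl4 in wild type on PBS, 8 for the knockout without T3 on oil, 1 for it without T3 on CCl4, and 21 for the genotype difference in the T3 response on CCl4. Over all genes these fits called 2836, 86, 4504, 109, 3 and 2300, against 2923, 396, 7202, 84, 351 and 3538 with all libraries. Without the 2 far libraries, an alternative chosen after seeing the data, members called were 9 and 19 for T3 in knockout on oil and on CCl4 and 22 for the genotype difference in the T3 response on oil. Calls over all genes were then 3869, 1149 and 2760. DESeq2 called 10 members for T3 in knockout on CCl4, and no filter gave 7 for the knockout on PBS and oil, beside 678 and 84 of all genes. The cause of these shifts was not tested.

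With 1 library left out, members called ranged over 1 to 15 for T3 in knockout on CCl4, 20 to 31 for CCl4 in knockout on PBS, 0 to 2 for CCl4 in wild type on T3, 4 to 18 for the knockout on PBS and CCl4, 0 to 1 for the genotype difference in the CCl4 response, 16 to 37 for the wild-type T3 response between injections, 23 to 26 and 28 to 34 for T3 in wild type on oil and CCl4, and 33 to 45 for CCl4 in wild type on PBS. Total-count scaling moved the median of all genes by 0.40 and 0.31 for CCl4 in wild type and in knockout on PBS, by -0.35 for T3 in wild type on CCl4, by 0.25 for its genotype difference and by -0.48 for the wild-type T3 response between injections, and T3 in knockout on CCl4 then had 0 members higher and 6 lower, against 1 and 5. Values not called that changed sign were Sult1e1 for T3 in knockout on CCl4, which was 0.0064 with the replicate block, 1.77 without the 2 far libraries and -0.73 to 1.78 with 1 library left out, Sult1e1 for CCl4 in wild type on T3 (-0.61 to 1.56 with 1 library left out), and Sult3a1 for T3 in knockout on oil (-0.62 to 1.10).

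The replicate numbers do not pair the livers, since same-numbered livers correlated between -0.326 and 0.493 and in no comparison were all these correlations above 0.1. With the replicate block, 6 members were higher in the knockout on PBS and oil, and 0 rose and 5 fell for T3 in knockout on CCl4. Of all genes, 68 were higher in the former, and 269 rose and 103 fell in the latter. Counts of few reads limit Sult4a1, Sult2a4, Ugt1a2 and Ugt8a, and shared sequence limits the Ugt1a, Gsta1 and Sult2a genes.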

Other observations

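Kupffer cell markers rose with T3. Of 6 such markers, T3 raised 6 in wild-type livers on oil, 6 in knockout livers on oil and 6 in wild-type livers on CCl4, comparisons in which it lowered 17, 2 and 5 conjugation genes and raised 9, 2 and 24. Of all genes, T3 lowered 16.2%, 8.11% and 21.7% there and raised 19%, 10.6% and 20%. In knockout livers on CCl4 the Kupffer marker sum was 515 CPM with T3 (404 to 624), against 246 CPM with PBS (153 to 342). There T3 raised 1 conjugation gene and lowered 5, against 1.77% and 0.769% of all genes. Of 8 stellate cell and myofibroblast markers, CCl4 raised 6 in wild-type and 6 in knockout livers on PBS, beside 24.6% and 17.8% of all genes. Their sum in wild-type PBS livers was 377 CPM with CCl4 (259 to 438), against 347 CPM with oil (302 to 377), and those ranges overlapped. In knockout PBS livers it was 377 CPM with CCl4 (328 to 409), against 295 CPM with oil (276 to 312), without overlap. In knockout T3 CCl4 livers 4 of these 8 markers were higher than in wild-type T3 CCl4 livers, the comparison in which 27 conjugation genes were lower. There 10.4% of all genes were higher and 12.5% lower. Of 6 cholangiocyte markers, 4 rose with CCl4 in wild-type livers on PBS and 5 fell with T3 in wild-type livers on CCl4. The shares of all genes were 24.6% for that rise and 21.7% for that fall. Whether these cell types bear on the conjugation genes was not tested.

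Gsta2 was ordered differently between the T3-treated genotypes on the 2 injections. It averaged 62.7 ± 6.55 CPM in knockout T3 oil livers, against 24.4 ± 11.4 CPM in wild-type T3 oil livers, and 11.8 ± 2.79 CPM in knockout T3 CCl4 livers, against 31.9 ± 15.6 CPM in wild-type T3 CCl4 livers. The log2 differences were 1.36 ± 0.38 on oil (adjusted p = 0.0137) and -1.43 ± 0.39 on CCl4 (adjusted p = 0.00784) by edgeR, and the call on oil was lost without wild-type T3 oil replicate 4 (adjusted p = 0.0579). The change of sign between injections was not itself tested.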
